A study of Mus musculus with 10 samples.

Results

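The 10 genes described here encode proteases and receptor chains of mast cells and basophils, and were chosen by name: *Tpsb2*, *Tpsab1*, *Cma1*, *Mcpt1*, *Mcpt2*, *Mcpt4*, *Cpa3*, *Mcpt8*, *Fcer1a* and *Ms4a2*. They are 10 of the 24062 genes listed in each library. Of these 24062 genes, 12221 reached 1 CPM (a count scaled to a fixed total of reads on genes) in at least 2 libraries and were tested, and all 10 named genes were among them. *Tpsb2* and *Tpsab1* passed this filter through the control libraries alone, where they were high, so for both genes a difference from the control was built into the filter. *Mcpt4* reached 1 CPM in 4 DN libraries and 1 control library, so the filter also favoured its higher level in DN cells.

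Mouse hematopoietic progenitors called LSK cells (lineage negative, SCA1+, KIT+), taken from the marrow of C57BL/6J mice, were cultured with or without the Notch ligand Delta1, which drives them through the early double negative (DN) stages of T cell development. Bulk RNA was sequenced in 10 libraries, 2 each of sorted DN1, DN2a and DN2b cells and 4 of a "no Notch" control. The DN cells came from cultures on a high density of immobilized Delta1, and the control cells from cultures on human IgG, harvested on day 14; all cultures held SCF, FLT3L, IL-6 and IL-11. IL-7 was left out of the cultures that gave DN1 and added to those that gave DN2a and DN2b, so the effects of stage and IL-7 cannot be told apart. The DN stages were sorted on KIT, CD44 and CD25 (DN1, KIT high CD44+ CD25-; DN2a, KIT high CD44+ CD25+; DN2b, lower KIT, low CD44, CD25+). No sort and no IL-7 are given for the control cells. In comparisons of DN with IgG, the effects of Delta1, sorting and, for DN2a and DN2b, IL-7 therefore cannot be told apart. Mast cells also carry KIT and CD44, so the DN1 gate as stated does not by itself exclude them. The part of mast cells in the results was not tested. The DN libraries are numbered 1 and 2 within each stage, replicate 1 carrying the earlier year in its label, and the control libraries are named IgG D1, D2, R1 and R2; the labels do not explain the letters D and R. Reads on genes ranged from 12354635 to 35367925 per library, and 3 reads, taken as the floor of detection, equalled 0.0848 to 0.243 CPM.

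Mast cells store proteases in granules bound to heparin and other proteoglycans, and release them when IgE on their surface is crosslinked. Tryptases, chymases and carboxypeptidase A3 are the main granule enzymes; in the mouse, different chymases mark mast cells of mucosa and of connective tissue, and MCPT8 marks basophils. Both cell types carry the tetrameric high affinity IgE receptor, made of an alpha chain that binds IgE, a beta chain and a pair of gamma chains. *Cpa3* is also transcribed in early hematopoietic progenitors that have not become mast cells, and is therefore a less strict marker than the chymases and tryptases.

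Cell identity was checked with marker lists. The 6 T lineage markers (*Cd3e*, *Cd3g*, *Bcl11b*, *Tcf7*, *Gata3* and *Rag1*) summed to 339 to 2687 CPM in the 6 DN libraries and 0.820 to 2.14 CPM in IgG. The 8 neutrophil markers summed to 22036 to 61728 CPM in IgG, 2971 and 85.5 CPM in DN1 replicates 1 and 2, and at most 20.2 CPM in DN2a and DN2b. The 6 macrophage markers summed to 1420 to 5577 CPM in IgG and 9.40 to 45.2 CPM in the DN libraries. In bulk RNA, fewer cells of a type and less RNA per cell cannot be told apart, for these lists and for each of the 10 genes.

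**Figure D1:**
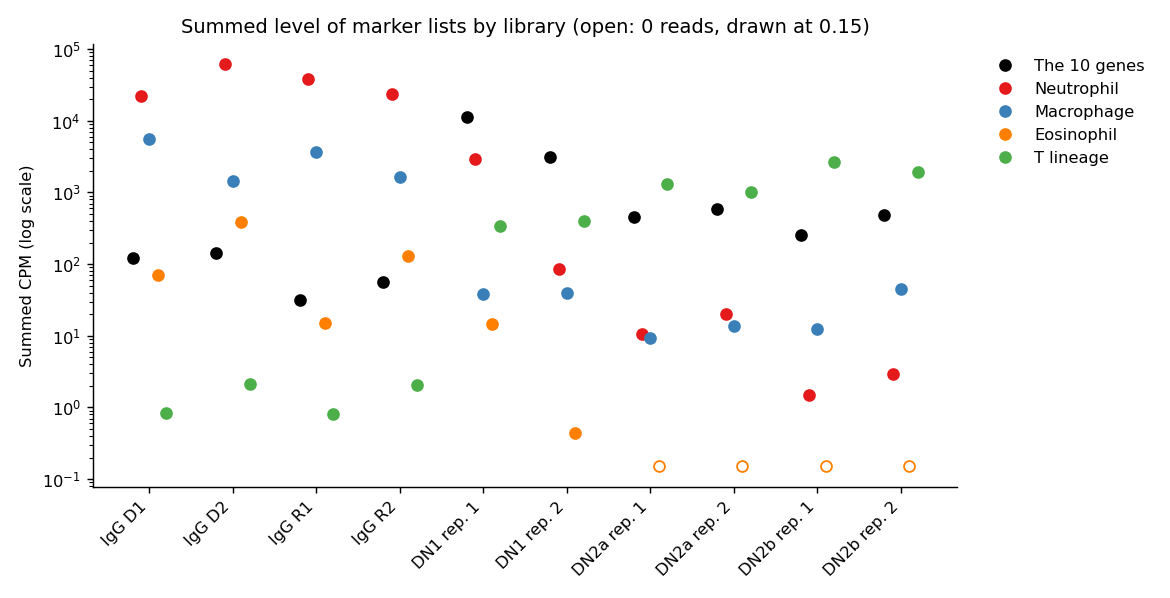
Summed CPM (log scale) of the 10 mast cell and basophil genes and of 4 marker lists in each of the 10 libraries; each point is 1 list in 1 library and open points had 0 reads. The 10 genes summed to 11343 CPM in DN1 replicate 1 and 3153 CPM in DN1 replicate 2, above the 31.2 to 143 CPM of the IgG libraries and the 257 to 578 CPM of DN2a and DN2b, while the neutrophil list was highest in IgG.

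These genes took their highest share of reads in DN1. The 10 genes took 1.13% and 0.315% of all gene reads in DN1 replicates 1 and 2, 0.0450% and 0.0578% in DN2a, 0.0257% and 0.0478% in DN2b, and 0.00312% to 0.0143% in IgG. In DN1 replicate 1, *Mcpt1* alone took 0.747% of gene reads and ranked 2nd among all genes by reads; in DN1 replicate 2 it ranked 63rd. What the reads were made of also changed with the stage. *Cpa3* gave 10.4% and 11.5% of the reads of the 10 genes in DN1, 83.7% to 97.4% in DN2a and DN2b, and 26.5% to 41.6% in IgG.

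**Figure D2:**
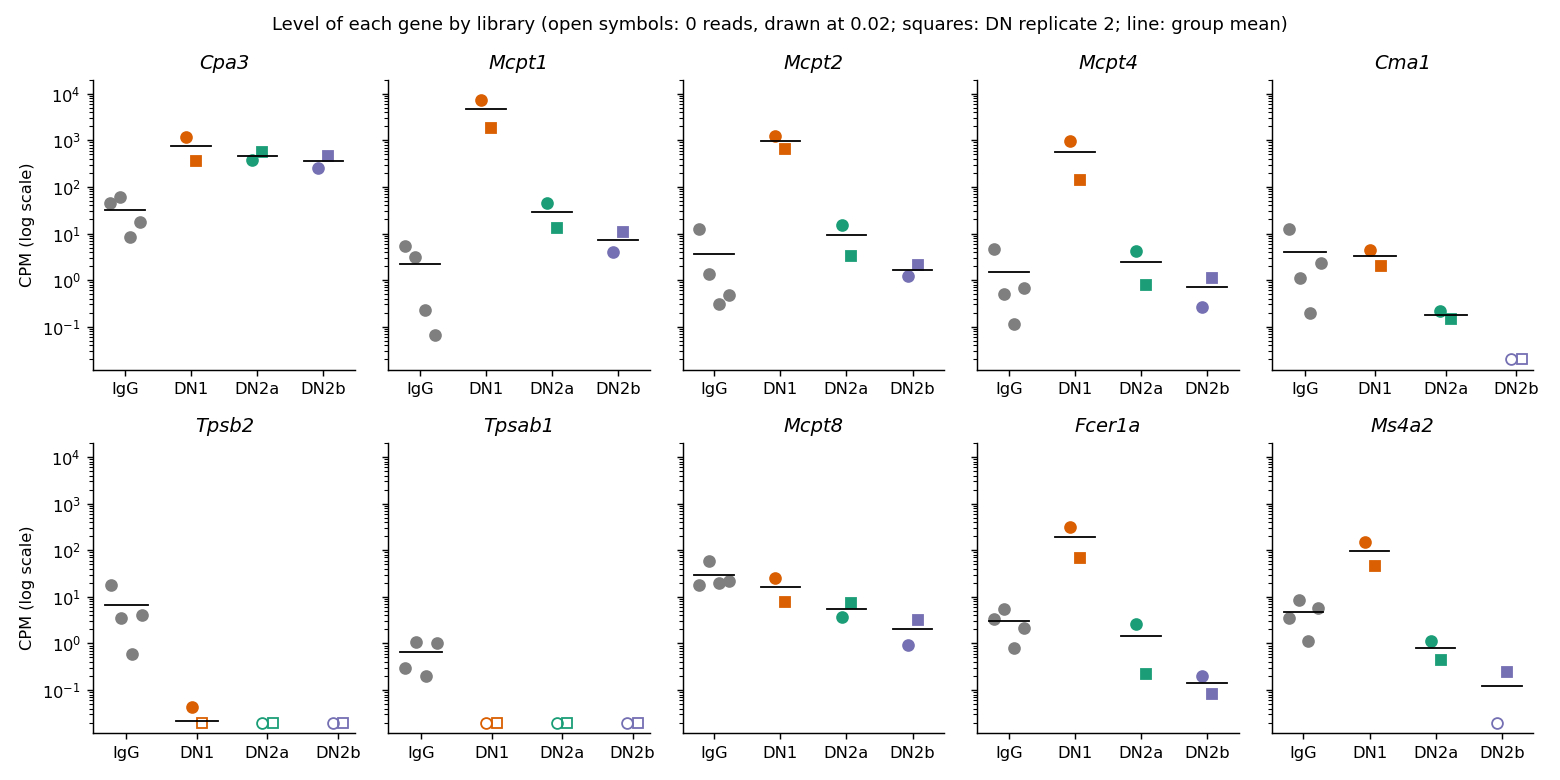
CPM (log scale) of each gene in the 4 IgG, 2 DN1, 2 DN2a and 2 DN2b libraries; each point is 1 library, squares are replicate 2 of a DN stage, open symbols had 0 reads and the line is the group mean. *Cpa3* lay at 250 CPM or above in all 6 DN libraries, *Mcpt1* was far higher in DN1 than elsewhere, and *Tpsab1* had reads in the IgG libraries alone.

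A stretch of 320.81 kb on chromosome 14, from *Cma1* to *Gzmb* (mm10, chr14:55941451-56262260), holds 5 of the 10 genes, *Cma1*, *Mcpt1*, *Mcpt2*, *Mcpt4* and *Mcpt8*, among 26 annotated genes, and the promoters of 4 of them are shown because neighbours in this cluster followed different patterns across the libraries. The promoter sequences used here, from RefSeq (GRCm38.p6), covered 7 of the 10 genes, those other than *Mcpt2*, *Tpsb2* and *Tpsab1*. Each line gives bases before the RefSeq transcript start, 5′ to 3′ on the gene's strand. The lines of *Mcpt4* and *Mcpt8* stop before that start, at the first exon base annotated by GENCODE, after 247 and 174 bases. GATAA or its reverse complement TTATC, the core letters bound by GATA factors, is in capitals.
Mcpt1: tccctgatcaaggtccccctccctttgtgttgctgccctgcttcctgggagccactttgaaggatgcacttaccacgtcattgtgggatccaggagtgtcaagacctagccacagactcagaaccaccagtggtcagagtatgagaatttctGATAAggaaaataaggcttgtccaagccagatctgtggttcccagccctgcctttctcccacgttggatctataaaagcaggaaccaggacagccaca
Mcpt4: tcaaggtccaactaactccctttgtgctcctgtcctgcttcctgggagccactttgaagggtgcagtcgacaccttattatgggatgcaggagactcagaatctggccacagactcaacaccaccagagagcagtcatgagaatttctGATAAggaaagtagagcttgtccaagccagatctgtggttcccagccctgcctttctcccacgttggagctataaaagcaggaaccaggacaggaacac
Cma1: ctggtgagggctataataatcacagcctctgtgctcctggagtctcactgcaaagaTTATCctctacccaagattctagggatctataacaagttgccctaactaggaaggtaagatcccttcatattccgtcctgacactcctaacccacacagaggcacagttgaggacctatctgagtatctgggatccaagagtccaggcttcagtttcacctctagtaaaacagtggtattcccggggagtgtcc
Mcpt8: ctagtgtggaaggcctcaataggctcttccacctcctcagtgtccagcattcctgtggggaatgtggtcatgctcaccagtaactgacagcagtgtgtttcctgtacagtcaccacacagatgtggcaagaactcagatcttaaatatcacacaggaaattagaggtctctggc
The positions are chr14:56017714-56017963, plus strand for *Mcpt1*, chr14:56062314-56062560, minus strand for *Mcpt4*, chr14:55944676-55944925, minus strand for *Cma1* and chr14:56085274-56085447, minus strand for *Mcpt8*. Searched on both strands in windows of 300 bases (250 before and 50 after the start), GATAA was present in 6 of the 7 windows, all but that of *Mcpt8*, and in 25.4% of all 32817 promoters in the table. The *Ms4a2* window held 3 matches, and 5.27% of all promoters held at least 2. The match began 98 bases before the RefSeq start in *Mcpt1*, 102 in *Mcpt4*, 194 in *Cma1*, 92 in *Fcer1a* and 45 in *Cpa3*. The *Mcpt1* and *Mcpt4* windows were identical at 254 of 312 aligned columns (81.4%), while the next most alike pair, *Mcpt4* and *Mcpt8*, shared 54.3%. A match is a run of letters and was not shown to be a bound site.

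*Mcpt1* encodes a chymase of mucosal mast cells and lies at chr14:56017971-56020384 on the plus strand. It was at 7467 CPM in DN1 replicate 1 and 1879 CPM in DN1 replicate 2, 46.2 and 13.1 CPM in DN2a, 4.10 and 10.8 CPM in DN2b, and 5.28, 3.08, 0.226 and 0.0674 CPM in IgG D1, D2, R1 and R2. Both DN1 libraries lay above every other library, and both DN2a libraries lay above every IgG library, while DN2b overlapped IgG. The log2 fold change (log2FC) of DN1 over IgG was 10.69 ± 1.55 (SE), with an adjusted p of 0.00160 by the quasi-likelihood test of edgeR (Benjamini-Hochberg, across all 12221 genes), the test behind every adjusted p and SE for which no other fit is named. *Mcpt1* was also higher in DN2a than in IgG (log2FC 3.61 ± 1.23, adjusted p = 0.0380 by edgeR), a call lost in 6 of 18 alternatives, with adjusted p reaching 0.255: without either DN2a library, without IgG D2 or IgG R1, with the groups compared alone and with IgG D1 and D2 alone. Its log2FC was 2.47 without DN2a replicate 1, 4.23 without DN2a replicate 2 and 4.59 without IgG D1. The DN2b difference from IgG did not pass (log2FC 1.61 ± 1.25, adjusted p = 0.317 by edgeR), but passed with IgG R1 and R2 as the only controls (5.59, adjusted p = 0.00813). This was 1 of 18 alternatives, and the rest did not pass. With each library left out in turn, the DN2b log2FC ran from 0.80 to 2.58.

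*Mcpt2*, which encodes a beta chymase also known from mucosal mast cells, lies at chr14:56042041-56044642 on the plus strand. It was at 1252 and 646 CPM in DN1 replicates 1 and 2, 15.2 and 3.31 CPM in DN2a, 1.24 and 2.10 CPM in DN2b, and 12.3, 1.38, 0.311 and 0.472 CPM in IgG D1, D2, R1 and R2. DN1 lay above all other libraries, while DN2a and DN2b overlapped IgG, in which D1 stood apart. *Mcpt2* was higher in DN1 than in IgG (log2FC 7.68 ± 1.40, adjusted p = 0.00419 by edgeR), and neither DN2a (log2FC 1.21 ± 1.23) nor DN2b (-1.27 ± 1.46) passed against IgG. The DN2a difference did pass without IgG D1 (log2FC 3.63, adjusted p = 0.00763 by edgeR) and with IgG R1 and R2 as the only controls (4.61, adjusted p = 0.00415).

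*Mcpt4*, the chymase of connective tissue mast cells, lies at chr14:56059629-56062313 on the minus strand. Its level was 954 and 144 CPM in DN1 replicates 1 and 2, 4.15 and 0.790 CPM in DN2a, 0.260 and 1.13 CPM in DN2b, and 4.65, 0.514, 0.113 and 0.674 CPM in IgG D1, D2, R1 and R2. As for *Mcpt2*, DN1 did not overlap any other group, and the DN2 stages overlapped IgG. The DN1 difference from IgG was 8.21 ± 1.34 on the log2 scale (adjusted p = 0.00272 by edgeR), and those of DN2a (0.70 ± 1.25) and DN2b (-1.22 ± 1.56) did not pass. The reads of 36 bases do not fully separate these chymases, since 75.2% of such windows of *Mcpt1*, 81.7% of *Mcpt2* and 64.2% of *Mcpt4* differ by more than 2 bases from every other gene of the cluster, so their exact split is uncertain.

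*Cma1*, which encodes mast cell chymase 5, an alpha chymase of connective tissue mast cells, lies at chr14:55941451-55944675 on the minus strand, its left end 76.52 kb from that of *Mcpt1*. It had a different pattern from the 3 beta chymases of the same cluster. Its level was 4.42 and 2.0 CPM in DN1 replicates 1 and 2, 0.219 and 0.144 CPM in DN2a, 0 reads in both DN2b libraries, and 12.2, 1.11, 0.198 and 2.36 CPM in IgG D1, D2, R1 and R2. Both DN1 libraries fell within the range of IgG. The DN1 difference from IgG did not pass (log2FC -0.66 ± 1.33, adjusted p = 0.735 by edgeR) and turned to 1.19 without IgG D1, the library with the most *Cma1* reads. The DN2a difference from IgG did not pass (log2FC -4.53 ± 1.73, adjusted p = 0.0608 by edgeR), but passed without IgG R1 (adjusted p = 0.0272), with IgG D1 and D2 alone (adjusted p = 0.0311) and by DESeq2 (adjusted p = 0.00377). These were 3 of 18 alternatives, and with each library left out in turn the log2FC ran from -4.93 to -2.67. IgG was at least 18.1-fold higher than DN2b, with DN2b set at the floor of 3 reads per library, and this difference passed (adjusted p = 0.0234 by edgeR). Without IgG D1 the bound was 5.58-fold, and the call was lost without either DN2b library (adjusted p up to 0.111) and with the groups compared alone (adjusted p = 0.0554). DN1 was at least 14.7-fold higher than DN2b on the same terms (at least 9.14-fold without DN1 replicate 1), a difference that did not pass (adjusted p = 0.191 by edgeR).

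*Tpsb2* and *Tpsab1* encode the mast cell tryptases MCPT6 and MCPT7 and lie next to each other on chromosome 17, at chr17:25366305-25369098 on the plus strand and chr17:25343245-25345562 on the minus strand. In C57BL/6J mice *Tpsab1* does not give a full enzyme, and RefSeq lists it as a transcribed pseudogene. *Tpsb2* was at 18.2, 3.52, 0.594 and 4.05 CPM in IgG D1, D2, R1 and R2; the 6 DN libraries held 1 *Tpsb2* read in all, in DN1 replicate 1. *Tpsab1* was at 0.291, 1.07, 0.198 and 1.05 CPM in the same IgG libraries and had 0 reads in every DN library.

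*Tpsb2* in IgG was 224 times its level in DN1 by pooled reads (605 against 1 read, 95% exact interval 40.1 to 8872, counting error only), at least 40.5 times that in DN2a and at least 30.1 times that in DN2b. Without IgG D1 these were 105 times, at least 16.7 times and at least 12.4 times, and against DN1 the ratio was at least 40.6 without DN1 replicate 1 and 123 without DN1 replicate 2. *Tpsab1* in IgG was at least 4.41-fold, 4.0-fold and 2.97-fold higher than in DN1, DN2a and DN2b. All 6 differences passed (adjusted p = 0.0128 to 0.0403 by edgeR), as the filter favoured, and each lost its call without either library of the DN stage compared. For *Tpsab1* the calls in DN1 and DN2b were also lost without IgG D1 (adjusted p = 0.0514 and 0.0537 by edgeR) and that in DN2b by DESeq2 (adjusted p = 0.0710), and *Tpsab1* failed the filter, and so had no test, without IgG D2, without IgG R2 and with either pair of IgG libraries alone. Of windows of 36 bases, 96.0% of *Tpsb2* and 97.0% of *Tpsab1* differ from the other tryptase by more than 2 bases.

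*Cpa3* encodes carboxypeptidase A3, which trims peptides in mast cell granules, and lies apart from the cluster at chr3:20215620-20242181 on the minus strand. It was the member that stayed high throughout the DN stages. Its level was 1175 and 361 CPM in DN1 replicates 1 and 2, 377 and 553 CPM in DN2a, 250 and 461 CPM in DN2b, and 44.3, 59.4, 8.26 and 17.6 CPM in IgG D1, D2, R1 and R2. Every DN library lay above every IgG library. *Cpa3* was higher than in IgG by 4.19 ± 0.76 in DN1 (adjusted p = 0.00425), 3.70 ± 0.75 in DN2a (adjusted p = 0.00430) and 3.29 ± 0.75 in DN2b (adjusted p = 0.00755) on the log2 scale, by edgeR. These 3 calls held in all 18 alternatives tried for each. Among the DN stages the *Cpa3* levels overlapped, and the log2FC against DN1 was -0.49 ± 0.88 in DN2a and -0.89 ± 0.89 in DN2b, with adjusted p of 0.878 and 0.719 by edgeR, so a difference of this size was within the spread of the libraries; without DN1 replicate 1 both turned positive, to 0.50 and 0.09.

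*Mcpt8* encodes a granzyme-like protease of basophils and lies at chr14:56082166-56085273 on the minus strand. Its mean was 29.5 ± 19.5 CPM (SD, n = 4) in IgG and 16.4 ± 12.0 CPM (n = 2) in DN1. Its level was 17.7, 58.7, 19.4 and 22.1 CPM in IgG D1, D2, R1 and R2, 24.9 and 7.90 CPM in DN1 replicates 1 and 2, 3.72 and 7.33 CPM in DN2a, and 0.911 and 3.16 CPM in DN2b. DN1 overlapped IgG, while both DN2 stages lay below every IgG library. *Mcpt8* was lower in DN2a (log2FC -2.53 ± 0.80, adjusted p = 0.0279 by edgeR) and in DN2b (-4.01 ± 0.88, adjusted p = 0.00669) than in IgG, and the DN1 difference did not pass (-1.19 ± 0.73, adjusted p = 0.242). The DN2a call was lost without either DN2a library (adjusted p up to 0.186) and with IgG R1 and R2 alone (adjusted p = 0.0691), and the DN2b call without DN2b replicate 1 (adjusted p = 0.0602). The DN2a log2FC was -3.14 without DN2a replicate 2 and -1.86 without IgG D2, and that of DN2b was -3.37 and -5.10 without DN2b replicates 1 and 2 and -3.32 without IgG D2. The DN1 log2FC ran from -2.15 to -0.53 with each library left out in turn.

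*Fcer1a* encodes the alpha chain of the IgE receptor, which binds IgE, and lies at chr1:173221284-173227214 on the minus strand. It was at 320 and 67.3 CPM in DN1 replicates 1 and 2, 2.62 and 0.216 CPM in DN2a, 0.195 and 0.0809 CPM in DN2b, and 3.29, 5.58, 0.792 and 2.19 CPM in IgG D1, D2, R1 and R2. DN1 lay above all other libraries, DN2b below all IgG libraries, and DN2a overlapped IgG. *Fcer1a* was higher in DN1 than in IgG (log2FC 5.67 ± 0.92, adjusted p = 0.00268 by edgeR). It was lower in DN2b, where IgG held 18.9 times as much by pooled reads (302 against 4 reads, 95% exact interval 7.29 to 69.7, adjusted p = 0.0351 by edgeR), and this call was lost without either DN2b library, IgG D1 or IgG D2 and with IgG R1 and R2 alone (adjusted p up to 0.152); the ratio was 33.6 without DN2b replicate 1.

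*Ms4a2* encodes the beta chain of the same receptor, which amplifies its signal, and lies at chr19:11615523-11623719 on the minus strand. It was at 147 and 44.9 CPM in DN1 replicates 1 and 2, 1.13 and 0.431 CPM in DN2a, 0 and 0.243 CPM in DN2b, and 3.59, 8.62, 1.10 and 5.90 CPM in IgG D1, D2, R1 and R2. Like *Fcer1a*, it was above all other libraries in DN1 and below all IgG libraries in DN2b; in DN2a, 1 library fell within the IgG range. *Ms4a2* was higher in DN1 than in IgG (log2FC 4.0 ± 0.78, adjusted p = 0.00561 by edgeR). It was lower in DN2a (-2.66 ± 0.95, adjusted p = 0.0460), a call lost in 9 of 18 alternatives (log2FC -3.52 without DN2a replicate 1), and in DN2b, where IgG held 42.2 times as much by pooled reads (506 against 3 reads, 95% exact interval 14.3 to 205, adjusted p = 0.00949 by edgeR). Without DN2b replicate 1 the DN2b call was lost (adjusted p = 0.0754 by edgeR) and the ratio was 18.8, and without DN2b replicate 2 it was at least 24.6.

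The gamma chain of the receptor, *Fcer1g*, which other Fc receptors of myeloid cells also use, did not follow the alpha and beta chains. It was at 169 and 45.8 CPM in DN1 and 375 to 756 CPM in IgG, and was lower in DN1 (log2FC -2.78 ± 0.84, adjusted p = 0.0324 by edgeR), where *Fcer1a* and *Ms4a2* were higher.

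Over the 10 genes, DN1 differed from IgG at 8, and 31.4% of all genes tested did so; without the tryptases, whose lower calls the filter fixed and from which nothing is read, the count was 6 of 8, and 5 of 7 when *Mcpt4* was also left out. The 6 higher genes were *Cpa3*, *Mcpt1*, *Mcpt2*, *Mcpt4*, *Fcer1a* and *Ms4a2* (14.3% of all genes were higher), and the 2 lower were the tryptases (17.0% were lower). The median log2FC of the 8 genes other than the tryptases was 4.93, beside 0.01 for all genes. Without DN1 replicate 1 the count fell to 5, the calls of *Ms4a2* (adjusted p = 0.0505) and of both tryptases being lost. The calls of *Mcpt1*, *Mcpt4*, *Cpa3* and *Fcer1a* held in all 18 alternatives tried and that of *Mcpt2* in 17, DESeq2 giving no p-value for *Mcpt2*. The size of these differences depended on single libraries. With each library left out in turn, the log2FC ran from 9.50 to 11.67 for *Mcpt1*, 7.21 to 10.10 for *Mcpt2*, 6.37 to 10.06 for *Mcpt4*, 3.20 to 4.77 for *Cpa3*, 4.25 to 6.38 for *Fcer1a* and 3.0 to 4.59 for *Ms4a2*. The lowest value of each came without DN1 replicate 1, and the highest without IgG D1 for the 3 chymases and without DN1 replicate 2 for the others.

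DN2a differed from IgG at 6 of the 10 genes, or 4 of 8 without the tryptases (45.5% of all genes), with *Cpa3* and *Mcpt1* higher (21.2% of all genes) and *Mcpt8*, *Ms4a2* and the tryptases lower (24.3%). The median log2FC of the 8 other than the tryptases was -0.21, beside -0.05 for all genes. The count was 1 without either DN2a library and 3 without IgG D2, and *Cpa3* was the call that held in each of these. DN2b differed from IgG at 7 of the 10, or 5 of 8 without the tryptases (42.5% of all genes), with *Cpa3* higher (19.9%) and *Cma1*, *Fcer1a*, *Mcpt8*, *Ms4a2* and the tryptases lower (22.5%). The median of the same 8, with genes at the floor set at their bound or ratio of pooled reads, was -2.64, beside -0.05 for all genes, and the count was 1 without DN2b replicate 1 and 3 without DN2b replicate 2. These 3 comparisons share the IgG libraries, and their shares of called genes for the DN2 stages are read against the 42.5% and 45.5% of all genes.

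**Figure D3:**
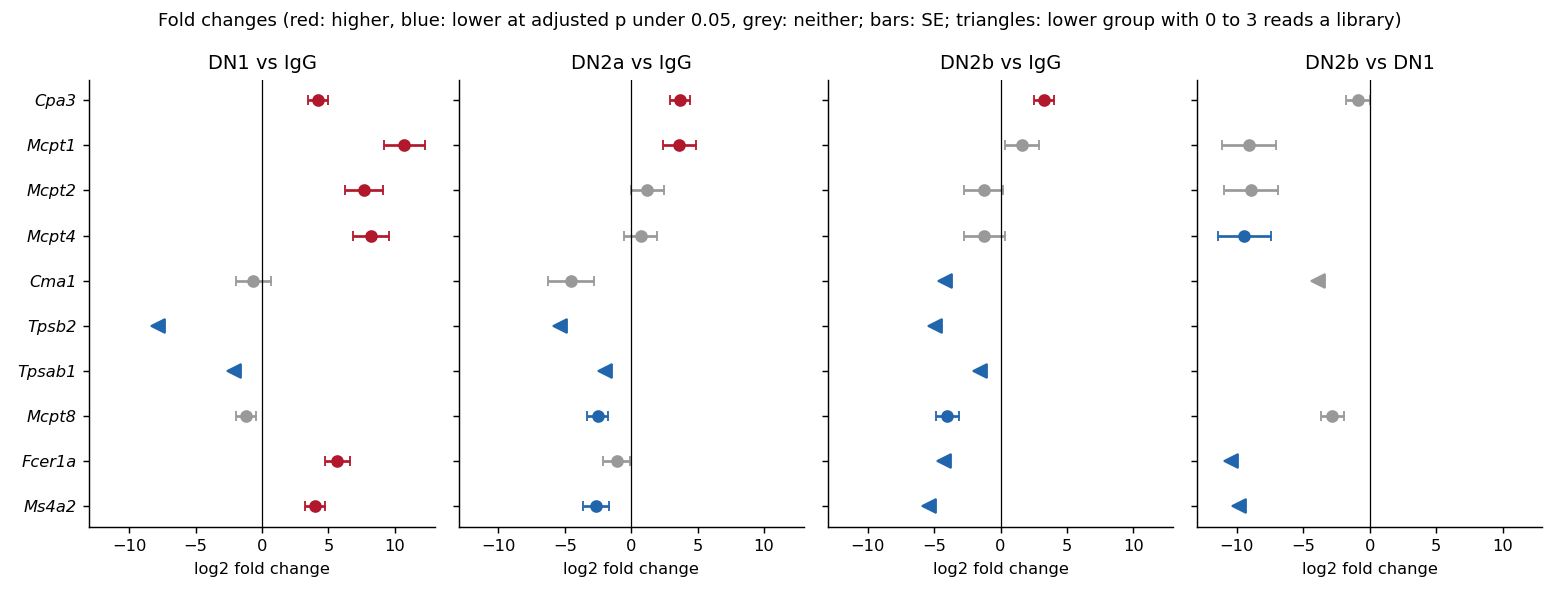
Log2 fold change of each gene in 4 comparisons, with bars of 1 SE; red and blue points passed an adjusted p of 0.05 as higher and lower, and grey points did not. Triangles mark genes with 0 reads (drawn at the bound of the fold) or at most 3 reads in each library (drawn at the ratio of pooled reads) of the lower group; no point is drawn where both groups were at the floor. *Cpa3* is higher than IgG in all 3 DN stages, and *Fcer1a* and *Ms4a2* are higher in DN1 and lower in DN2b.

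Between the DN stages, the chymases and IgE receptor chains were at their highest in DN1. In DN2b, *Fcer1a* (adjusted p = 0.0203), *Mcpt4* (log2FC -9.43 ± 1.98, adjusted p = 0.0490) and *Ms4a2* (adjusted p = 0.0156) were lower than in DN1 by edgeR, so 3 of the 10 genes were called, beside 1.91% of all genes (0.892% lower). By pooled reads, *Fcer1a* in DN1 was 1430 times its level in DN2b (95% exact interval 558 to 5249) and *Ms4a2* 935 times (320 to 4533). These ratios rested on few DN2b reads and on DN1 replicate 1: they were 467 and 415 without DN1 replicate 1, and 2217 and 1359 without DN1 replicate 2. Without DN2b replicate 1 they were 2548 and 416, and without DN2b replicate 2 they were 1057 and at least 492. *Mcpt1* (-9.08 ± 2.0, adjusted p = 0.0616) and *Mcpt2* (-8.95 ± 2.04, adjusted p = 0.0676) had values of like size that did not pass by edgeR. With each library left out in turn, these ran from -9.89 to -7.87 for *Mcpt1* and from -9.34 to -8.48 for *Mcpt2*. The *Mcpt4* log2FC was -7.61 and -10.21 without DN1 replicates 1 and 2, and -8.70 and -10.74 without DN2b replicates 1 and 2. Its call held in 10 of 18 alternatives, and *Mcpt1* was called in 7 of 18. The median over the 8 genes above the floor in at least 1 of the 2 stages was -9.02, beside -0.02 for all genes. The count fell to 0 without DN1 replicate 1, without DN2b replicate 1 and without DN2b replicate 2, and DESeq2 called 6. Of all genes, DESeq2 called 822 in this comparison. With the label year as a replicate block, over the DN libraries alone, 5 were called, *Mcpt1* (adjusted p = 0.0303) and *Mcpt2* (adjusted p = 0.0161) being added by edgeR, and that fit also called 5 without the block. The share of all genes called was not computed for the fits over the DN libraries alone.

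Against DN1, DN2a had 0 of the 10 genes called by edgeR, beside 0.401% of all genes, 0.196% higher and 0.205% lower. By edgeR 5 of the 10 had an unadjusted p under 0.05, beside 1328 of the 12221 genes tested. DESeq2 called 4 of the 10, beside 474 of all genes. The study's methods have the 3 stages sorted from each LSK isolate, and with the label year as a replicate block, over the DN libraries alone, *Fcer1a* (adjusted p = 0.0135), *Mcpt2* (adjusted p = 0.0403) and *Ms4a2* (adjusted p = 0.0412) were lower in DN2a by edgeR; without the block that fit called *Mcpt2* alone (adjusted p = 0.0394). The median log2FC of the same 8 genes was -6.56, beside -0.03 for all genes, with *Ms4a2* (-6.65 ± 1.18, adjusted p = 0.0575) and *Fcer1a* (-6.78 ± 1.31, adjusted p = 0.0809) nearest to the threshold by edgeR. With each library left out in turn, the log2FC ran from -7.50 to -5.68 for *Ms4a2* and from -9.49 to -5.40 for *Fcer1a*. The count rose to 2 without DN1 replicate 2, and to 1 without IgG D1 or IgG R1. Between DN2b and DN2a, 0 of the 10 genes and 0% of all genes were called by edgeR. By edgeR 0 of the 10 had an unadjusted p under 0.05, beside 335 of all genes tested. DESeq2 called 0 of the 10, beside 29 of all genes, with unadjusted p of 0.0103 for *Fcer1a* and 0.0275 for *Ms4a2*. The median log2FC of the 7 genes with a fold was -2.0, beside -0.00 for all genes, and *Cpa3* had the smallest (-0.41 ± 0.88).

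The DN1 libraries differed from each other in the level of these genes. All 8 genes with reads beyond the floor in DN1 were higher in DN1 replicate 1 than in DN1 replicate 2, by a CPM ratio of 1.94 for *Mcpt2* to 6.61 for *Mcpt4*. For each 100 *Cpa3* reads there were 635 and 520 *Mcpt1* reads in DN1 replicates 1 and 2, 12.3 and 2.37 in DN2a, 1.64 and 2.34 in DN2b, and 11.9, 5.19, 2.74 and 0.383 in IgG D1, D2, R1 and R2. For *Ms4a2* these values were 12.5 and 12.4 in DN1, 0 to 0.300 in DN2a and DN2b, and 8.10 to 33.5 in IgG, so DN1 and IgG overlapped in this ratio. *Mcpt8* gave 2.1 and 2.2 reads per 100 *Cpa3* reads in DN1, 0.364 to 1.33 in DN2a and DN2b, and 40.04 to 235 in IgG. DN1 replicate 1 also held more of the neutrophil markers (2971 against 85.5 CPM) and of *Gata1* (94.9 against 2.06 CPM), *Gata2* (200 against 16.9 CPM) and *Hdc* (33.6 against 1.24 CPM). The 5 megakaryocyte and erythroid markers summed to 107 and 2.92 CPM in DN1 replicates 1 and 2, 0.243 to 1.72 CPM in DN2a and DN2b, and 281 to 1041 CPM in IgG. Among them the globins *Hba-a1* and *Hbb-bt* had 0 reads in every library. Reads that aligned to more than 1 place were not counted, so this does not show that globin RNA was absent. Of the 5 markers, *Epor*, the erythropoietin receptor, was at 46.5 and 0.595 CPM in DN1 and at most 0.949 CPM in IgG, and *Pf4*, a platelet chemokine, at 54.2 and 1.78 CPM in DN1 and 206 to 912 CPM in IgG. The part of these differences in the higher mast cell gene levels of DN1 replicate 1 was not tested.

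**Figure D4:**
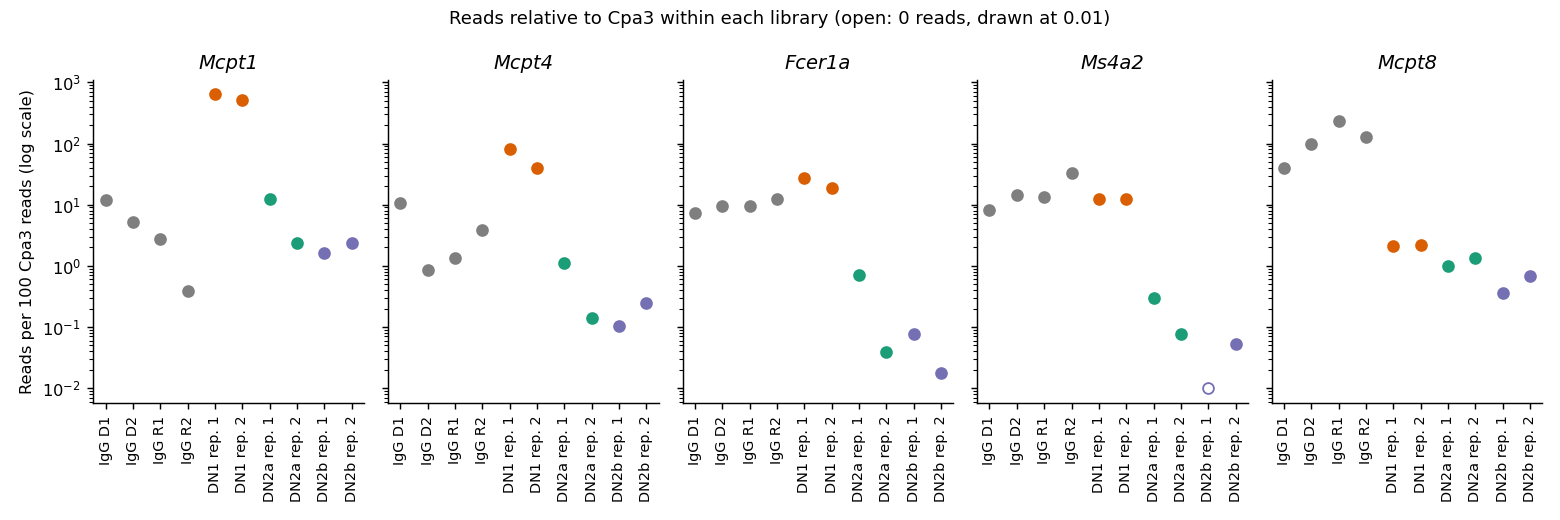
Reads of *Mcpt1*, *Mcpt4*, *Fcer1a*, *Ms4a2* and *Mcpt8* per 100 *Cpa3* reads (log scale) within each library; each point is 1 library and the open point had 0 reads. *Mcpt1* stands at 635 and 520 in DN1 and at 12.3 or less elsewhere, while *Mcpt8* is highest in IgG, at 40.04 to 235.

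Levels per kb of exon used all annotated exons of a gene. Reads that aligned to more than 1 place were left out, so the scale compares genes only roughly. On this scale the mean levels in DN1 ran from *Mcpt1* (4608 CPM per kb) through *Mcpt2* (894), *Cpa3* (507), *Mcpt4* (495), *Fcer1a* (194), *Ms4a2* (34.1) and *Mcpt8* (16.4) to *Cma1* (2.94), with the tryptases at or near 0. The neighbours in this order from *Mcpt2* to *Fcer1a* overlapped between the DN1 libraries, and so did *Ms4a2* and *Mcpt8*. In IgG the means were highest for *Mcpt8* (29.6 CPM per kb) and *Cpa3* (21.4), which overlapped and changed places in IgG D1 (17.8 and 29.2), and the places of *Tpsb2* (4.13, and 1.71 without IgG D1), *Cma1* (3.64 and 1.12) and *Mcpt2* (3.41 and 0.681) rested on IgG D1. In DN2a and DN2b *Cpa3* led at 306 and 234 CPM per kb, and *Mcpt1* came next at 29.2 and 7.33.

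Within the chromosome 14 cluster, *Mcpt1*, *Mcpt2* and *Mcpt4* shared a pattern, highest in DN1, and some other genes differed. *Gzmd*, *Gzme*, *Gzmf*, *Gzmg* and *Gzmn* had at most 1 read in any library. The genes that follow were picked after values were seen. *Gzmb*, the cytotoxic granzyme at the far end of the cluster, was at 249 to 2310 CPM in DN1, 88.1 to 426 CPM in DN2a and DN2b and at most 0.870 CPM in IgG, having entered the test through the DN libraries alone. *Ctsg*, the neutrophil and mast cell protease cathepsin G next to *Mcpt8*, ran the other way, at 474 to 1952 CPM in IgG and 8.07 to 94.4 CPM in the DN libraries (DN1 over IgG -4.78 ± 1.01, adjusted p = 0.00825). *Cma2*, beside *Cma1*, had 82 reads in DN1 and 2 in IgG (a ratio of 111 by pooled reads, 95% exact interval 29.7 to 929), and did not reach the filter for testing. Of the 82 reads 69 came from DN1 replicate 1, and both IgG reads from IgG D1; the ratio was 39.0 without DN1 replicate 1, 169 without DN1 replicate 2 and at least 18.5 without IgG D1. *Cma2* shares exon bases with *Mcpt-ps1* on the opposite strand, and *Mcpt-ps1* had 1364 reads in DN1 and at most 4 in any IgG library. The strand setting of the counting is not given in the sources used here, so the reads of this pair are uncertain. Of the 36-base windows of *Mcpt4*, 25.9% lie within 2 mismatches of *Cma2*, and DN1 held 24255 *Mcpt4* reads. The part of *Mcpt4* reads in the *Cma2* ratio was not tested.

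**Figure D5:**
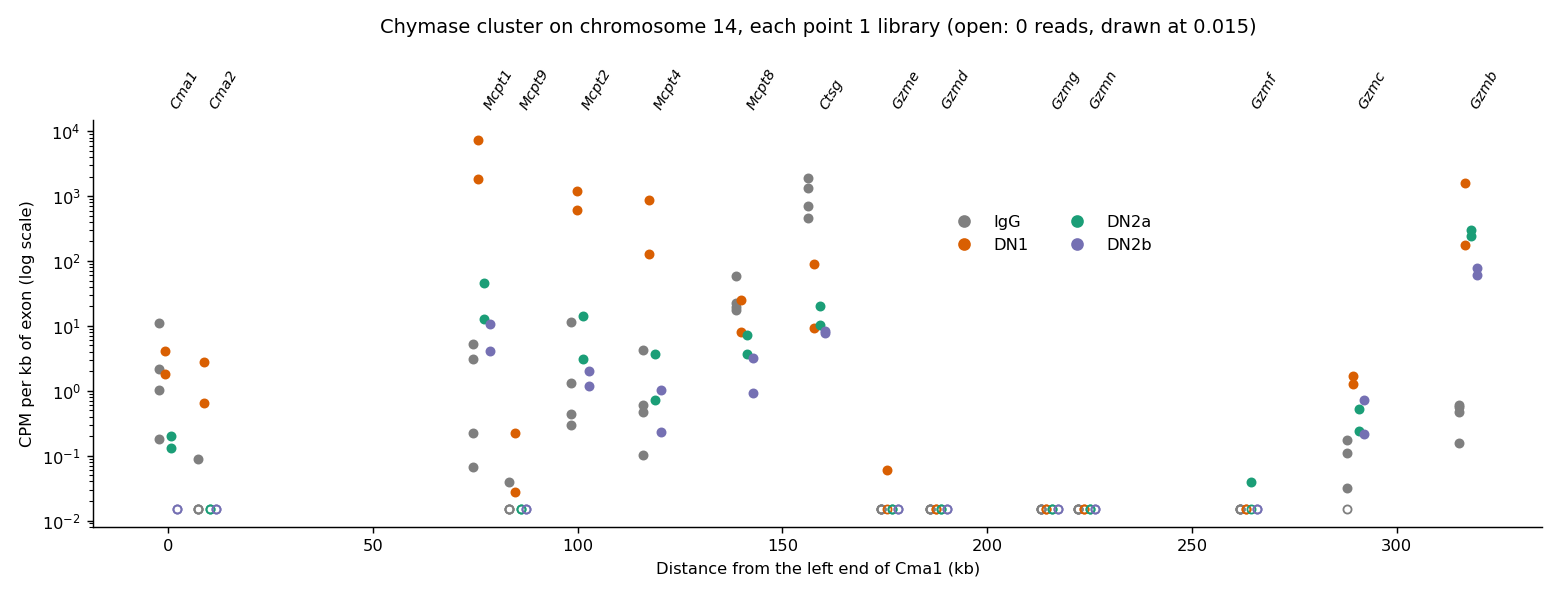
CPM per kb of exon (log scale) of the 15 protein-coding genes of the chromosome 14 cluster against distance in kb from the left end of *Cma1*; each point is 1 library and open points had 0 reads. *Mcpt1*, *Mcpt2* and *Mcpt4* are highest in DN1, *Ctsg* is highest in IgG, *Mcpt8* overlaps between DN1 and IgG, and *Gzmb* is high in all DN libraries.

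Other genes of mast cells and basophils split in the same comparison. Of 23 tested genes of an effector list (granule contents, lipid mediator enzymes, receptors and cytokines), 9 were higher and 5 lower in DN1 than in IgG, beside 14.3% and 17.0% of all genes, and the median log2FC was 0.02. The filter favoured 3 of the higher calls (*Gzmb*, *Il4* and *Itga2*, which reached 1 CPM in fewer than 2 IgG libraries) and 2 of the lower ones (*Ccr3* and *Prss34*, in fewer than 2 DN libraries), which left 6 and 3. The higher genes included *Kit*, the stem cell factor receptor on which mast cells depend (438 and 346 CPM in DN1, 23.0 to 115 CPM in IgG) and which the sort gate used, *Il1rl1*, the IL-33 receptor (69.9 and 16.5 CPM against 1.67 to 7.17 CPM), and *Slc18a2*, the vesicular amine transporter (63.1 and 11.1 CPM against 2.13 to 5.10 CPM). *Prss34*, the basophil protease MCPT11, was at 3.49 and 0.108 CPM in DN1 and 8.79 to 40.2 CPM in IgG. The lower genes included *Csf2rb*, the common beta chain of the IL-3 receptor (170 and 21.3 CPM against 280 to 597 CPM). *Hdc*, which makes histamine, was at 33.6 and 1.24 CPM in DN1 and 20.4 to 55.6 CPM in IgG and did not pass (log2FC -1.46 ± 0.92, adjusted p = 0.257 by edgeR). In DN2a 5 of the 23 were higher and 12 lower than in IgG, and in DN2b 3 were higher and 12 lower, with medians of -1.79 and -3.07; of all genes, 21.2% and 24.3% were higher and lower in DN2a, and 19.9% and 22.5% in DN2b. Without the same 5 genes, 2 were higher and 10 lower in DN2a, and 0 and 10 in DN2b. Against DN1, 0 were higher and 3 lower in DN2b (*Alox5*, *Csf2rb* and *Il1rl1*), beside 1.01% and 0.892% of all genes.

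Of 15 genes that carry the signal of the IgE receptor, 3 were higher in each DN stage than in IgG (*Fyn*, *Lat* and *Plcg1*, which T cells also use), and 7, 8 and 10 were lower in DN1, DN2a and DN2b, among them the kinases *Lyn* and *Syk*. Of all genes, 14.3%, 21.2% and 19.9% were higher and 17.0%, 24.3% and 22.5% lower in the same comparisons. The median log2FC was -0.56, -1.04 and -1.53. Of 13 regulators, 5 were higher in DN1 than in IgG, namely *Gata1*, *Gata2*, *Tal1* and the GATA1 partner *Zfpm1*, which act in mast cell and erythroid programs, and the Notch target *Hes1*; 4 were lower (*Bhlhe40*, *Cebpa*, *Cebpb* and *Spi1*), beside 14.3% and 17.0% of all genes. *Gata1* was at 94.9 and 2.06 CPM in DN1 and 0.226 to 4.35 CPM in IgG, so DN1 replicate 2 lay within the IgG range. *Gata2* was at 200 and 16.9 CPM in DN1 and 3.22 to 18.1 CPM in IgG, with the same overlap. *Mitf*, a factor that mast cells require, was at 11.1 and 3.25 CPM in DN1 and 7.32 to 34.4 CPM in IgG and did not pass (adjusted p = 0.0565 by edgeR). *Hes1* reached 1 CPM in the DN libraries alone, so the filter favoured its higher calls, and without it 4 regulators were higher in DN1 and 0 in DN2a and DN2b. In DN2a 5 of the 13 regulators were lower than in IgG, and in DN2b 4 were lower. Of all genes, 21.2% and 24.3% were higher and lower in DN2a, and 19.9% and 22.5% in DN2b.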

How the data were processed

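Raw counts per gene symbol were deposited by the authors for 10 libraries made from total RNA. Per the labels and the study's methods, the authors aligned the first 36 bases of reads to mm10 with TopHat2 2.12 and counted them per gene with HTSeq 0.6.1p1; the gene annotation and strand setting of the counting are not given in the sources used here. Spreadsheet conversion had turned 27 gene symbols into dates. Reads that aligned to more than 1 place (16.4% to 30.1% per library) were in the summary lines, which were dropped with the other lines that name no gene (20.5% to 41.0%).

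CPM was computed over the reads on genes. Counts of the 10 libraries entered 1 model of 4 groups in edgeR 4.0.16 under R 4.3.3 (TMM factors 0.858 to 1.19, prior count 0.125, quasi-likelihood test). Genes at 1 CPM or more in 2 or more libraries were tested, with Benjamini-Hochberg adjustment over all 12221 genes and a threshold of 0.05. The code was tested on simulated counts. A gene with no library of a group above 3 reads was treated as at the floor there; their folds are lower bounds at 0 reads and otherwise ratios of pooled reads with exact binomial intervals, which cover counting error only. Levels per kb used the exon length of GENCODE vM21 genes on mm10, whose coordinates are given. Python 3.11.15, scipy 1.17.1, Biopython 1.88 and matplotlib 3.10.9 were used for the rest.

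The replicates are described as independent LSK isolates, each giving all 3 DN stages; the labels alone do not say so, and p-values measure the spread between these libraries. The DN2a and DN2b libraries share label dates, and their deviations from the group means correlated across genes (r = 0.27); DN1 shares only the year with them (r = 0.08 with DN2a and 0.29 with DN2b). The 10 genes and the marker and pathway lists were chosen with earlier results of these data known. Named genes are the 10 members, list genes whose values a result turns on, and, for the highest gene of each role, the 3 tested genes with the highest Pearson correlation of log2(CPM + 1). *Gzmb*, *Ctsg* and *Cma2* were picked within the cluster after values were seen. Alternatives were DESeq2 1.42.0, scaling to library size, no filter, filterByExpr, the groups compared alone, the DN libraries with and without a year block, either pair of IgG libraries (D or R) as the only controls, and each library left out. The counts without the tryptases were added after seeing the data.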

Additional observations from a re-analysis of the deposited data

Results flagged for a closer look

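In 3 of the 11 sets of 4 IgG values tested, 1 library lay far from the other 3 relative to the range of the set, past Dixon's 95% critical value; chance flags about 1 set in 20. IgG D1 held 12.3 CPM of *Mcpt2* and 4.65 CPM of *Mcpt4*, where the gap took up 0.911 and 0.876 of the range. IgG D2 held 58.7 CPM of *Mcpt8*, with a gap of 0.892 of the range.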

How the results depend on the processing

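With each library left out in turn, the number of the 10 genes called ranged from 5 to 8 for DN1 against IgG, 1 to 6 for DN2a against IgG, 1 to 7 for DN2b against IgG, 0 to 2 for DN2a against DN1 and 0 to 4 for DN2b against DN1. With IgG R1 and R2 as the only controls, 3 genes were called in DN2a. For DN2a against DN1 (0 called), no filter gave 2, the groups compared alone 2 and DESeq2 4, beside 474 of all genes by DESeq2. For DN2b against DN1 (3 called), no filter gave 5 and DESeq2 6, beside 822 of all genes by DESeq2. With the label year as a replicate block, the DN libraries alone gave 3 and 5 calls in these comparisons, and without the block 1 and 5; the block left DN2b against DN2a at 0. The cause of these differences was not tested. Some log2FC that did not pass changed sign: with IgG R1 and R2 alone, *Cma1* in DN1 (1.24), *Fcer1a* in DN2a (0.12), and *Mcpt2* (2.13) and *Mcpt4* (0.89) in DN2b; with IgG D1 and D2 alone, *Mcpt4* in DN2a (-0.26). With 1 library left out, the range against IgG was -1.25 to 1.19 for *Cma1* in DN1, -0.24 to 3.63 for *Mcpt2* and -0.95 to 2.55 for *Mcpt4* in DN2a, and -1.69 to 1.14 for *Mcpt2* and -2.54 to 0.63 for *Mcpt4* in DN2b; against DN1 it was -1.07 to 0.50 for *Cpa3* in DN2a and -1.47 to 0.092 for *Cpa3* in DN2b. Scaling to library size moved the median log2FC of all genes for DN1 over IgG from 0.01 to 0.27, and turned no direction of the 10 genes.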

Other observations

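The genes whose log2(CPM + 1) followed each role most closely over the 10 libraries were taken as a description, with the libraries of each group shared by all. *Cpa3* was most like *Polr2k* (Pearson r = 0.98), *Fam109b* (r = 0.97) and *Mdp1* (r = 0.97), of which *Fam109b* was at 27.3 to 56.5 CPM in the DN libraries and 0.283 to 3.88 CPM in IgG. *Mcpt1* was most like *Npl* (r = 0.97), *Emid1* (r = 0.96) and *Car8* (r = 0.96). *Car8* was at 15.6 to 54.7 CPM in DN1, 0.647 to 1.78 CPM in DN2a and DN2b and 0.0565 to 0.678 CPM in IgG. *Fcer1a* was most like *Slc45a3* (r = 0.97), at 12.3 to 138 CPM in DN1, 0 to 0.364 CPM in DN2a and DN2b and 0.679 to 2.61 CPM in IgG, and then *BC048403* and *Fam174b*. *Tpsb2* was most like *Btla* (r = 0.96), a lymphocyte and myeloid coreceptor, at 1.19 to 6.01 CPM in IgG and at most 0.325 CPM in the DN libraries, followed by *Ttc9* and *2610034B18Rik*. *Mcpt8* was most like *Prune*, *Chst11* and *0610030E20Rik* (r = 0.95 to 0.97).

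The 5 eosinophil markers, which the 10 genes do not include, summed to 71.3, 387, 15.0 and 131 CPM in IgG D1, D2, R1 and R2, 14.7 and 0.433 CPM in DN1 replicates 1 and 2, and had 0 reads in DN2a and DN2b.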
